A study of Mus musculus with 9 samples.

Results

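The mRNAs described here are those of 8 genes of the polyamine pathway, Oaz1, Oaz2, Azin1, Odc1, Amd1, Sat1, Srm and Sms. They were taken by gene name from the deposited table of the RIP-seq experiment and are given both as the sum over the transcripts of each gene and by transcript. They make up 8 of 54325 gene names and 50 of 140658 transcripts in that table. They were grouped by name and not by a cut on their values, although earlier results of these data were known when they were chosen.

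The experiment asked which RNAs are bound by phosphorylated UPF1 (p-UPF1) in N2A cells, a mouse neuroblastoma line. All cells, those behind the controls included, had been exposed for 2 h to 200 nM okadaic acid, which inhibits protein phosphatases, so no library shows untreated cells. RNA recovered with antibody to p-UPF1 (p-UPF1 IP), RNA recovered with rabbit IgG (rIgG IP) and RNA without immunoprecipitation (input) were cut to short fragments with RNase I and sequenced from 3 libraries each, 9 libraries in all. The labels do not say whether the 3 libraries of a group came from separate cultures, so the p-values measure the spread between these libraries, which may be technical.

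Polyamines (putrescine, spermidine and spermine) are small, positively charged molecules that bind nucleic acids and are needed for growth and translation. Ornithine decarboxylase (Odc1) makes putrescine, S-adenosylmethionine decarboxylase (Amd1) supplies the aminopropyl donor, and spermidine synthase (Srm) and spermine synthase (Sms) use both to build the larger polyamines, while spermidine/spermine acetyltransferase (Sat1) marks them for breakdown or export. Antizymes (Oaz1 and Oaz2) bind ornithine decarboxylase and send it to the proteasome, antizyme inhibitor (Azin1) binds antizymes in its place, and polyamines themselves raise the ribosomal frameshift that antizyme translation requires. UPF1, an RNA helicase, is phosphorylated during nonsense-mediated mRNA decay (NMD), the pathway that degrades mRNAs on which ribosomes stop too early, for example far upstream of an exon junction or at the end of an upstream open reading frame (uORF).

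The recoding sites and uORFs are shown first because each holds a stop codon other than the annotated stop of the main reading frame. Sequences and positions are from GENCODE M21 (GRCm38), read 5′ to 3′ on the strand of the gene. The antizyme lines hold the stop codon of the first reading frame, in capitals, where translation either ends or moves to the next frame. The other lines hold 1 whole uORF each, with the start and stop codons in capitals.
Oaz1, chr10:80828280-80828309, plus strand: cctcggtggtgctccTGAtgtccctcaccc
Oaz2, chr9:65686257-65686286, plus strand: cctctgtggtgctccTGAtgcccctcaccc
Azin1, chr15:38514482-38514505, minus strand: ATGatagggggttccatctccTAA
Odc1, chr12:17544921-17544947, plus strand: ATGacgacgtgctcggcgtataagTAG
Amd1, chr10:40302155-40302175, minus strand: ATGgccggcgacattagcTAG
Sat1, chrX:155216271-155216285, minus strand: ATGgtgccagccTGA

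The antizyme windows were identical at 28 of 30 bases. In the most-counted coding transcript, the first frame of Oaz1 ended after 68 codons and that of Oaz2 after 32 codons. In both, 3 exon junctions lay more than 50 nt downstream of that stop, whereas none lay so far downstream of the annotated stop of the full antizyme. The annotation marks such a shift as a gap of under 10 nt in the coding exons, which the most-counted coding transcript had in 18 of 11933 genes. Upstream ATG codons were counted in the most-counted coding transcript of each gene. There were 6 in Azin1, 4 in Sms, 2 in Odc1, 2 in Sat1 and 1 in Amd1, and none in Oaz1, Oaz2 or Srm. The printed uORF of Amd1 starts at base 12 of its transcript and ends 296 nt before the main start codon. In Azin1 all 6 upstream frames closed before the main start codon. Of the 11933 genes, 49.5% had an upstream ATG. Srm therefore had neither a recoding site nor an upstream ATG in this annotation, although it stands in the same group by name, and its mRNA is described here as the member without either feature. No member had a junction more than 50 nt downstream of its annotated stop, a feature found in 0.494% of the 11933 genes.

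Total counts ranged from 25184464 to 29857955 in input, from 5312526 to 6246110 in the p-UPF1 IP and from 79010 to 474491 in the rIgG IP. A sum of 3 counts, below which a level cannot be told from 0, corresponded to 0.100 to 0.119 CPM (counts scaled to the library size), 0.480 to 0.565 CPM and 6.32 to 38.0 CPM in these groups, for counting error only. The 8 members together received 5597 to 6835 counts per input library and 1496 to 1767 per p-UPF1 IP library, but 11 to 77 per rIgG IP library. Of 11 sympathetic neuroblastoma markers, 9 had at least 10 counts in every input library, among them Hand2. The 3 immune markers summed to at most 0.119 CPM in input.

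Relative to input, Oaz2 and Azin1 were higher in the p-UPF1 IP and Odc1 was lower. Oaz1, Amd1 and Sat1 were modestly lower, and the tests of Srm and Sms did not pass. In all, 6 of 8 members passed an adjusted p of 0.05, when 62.0% of all 16919 genes tested did so. The 2 higher members stand against 26.3% of genes called higher, and the 4 lower ones against 35.7% called lower. The share of members called higher was thus at the background of all genes. The median log2 fold change was -0.27 over the members and -0.42 over all genes. Adjusted p-values are from edgeR's quasi-likelihood test with Benjamini-Hochberg adjustment over all genes tested, and CPM values are scaled by TMM factors.

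**Figure D1:**
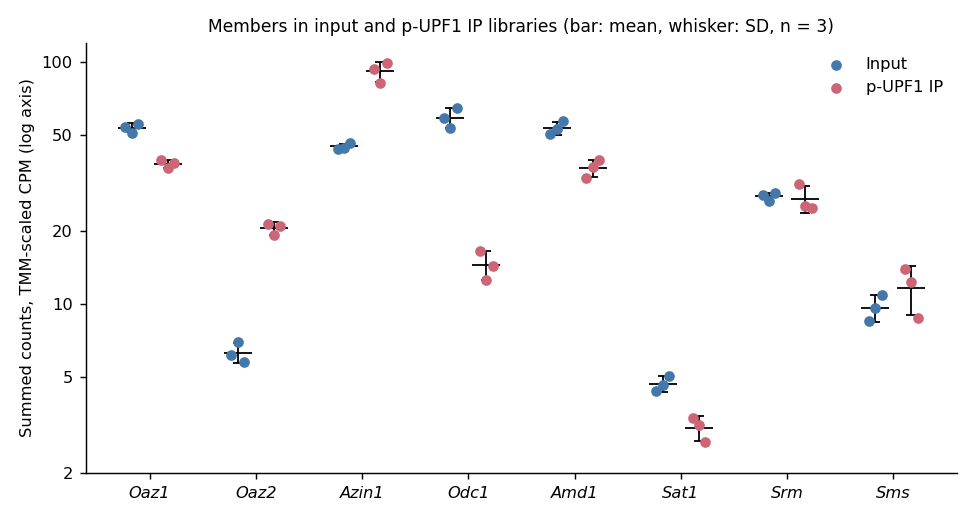
Summed counts of each member as TMM-scaled CPM on a log axis, with 1 point per library, the mean as a bar and the SD as whiskers (n = 3 per group). The p-UPF1 IP points lie above all input points for Oaz2 and Azin1, below all of them for Oaz1, Odc1, Amd1 and Sat1, and overlap their range for Srm and Sms. The share of all genes without overlap was not computed.

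Relative to input and with TMM scaling, the antizyme mRNAs had log2 fold changes of opposite sign. Oaz2 (ENSMUSG00000040652.16, chr9:65668001-65690300, plus strand) had input counts of 141, 156 and 144 and p-UPF1 IP counts of 127, 140 and 149, which were several times shallower. All p-UPF1 IP libraries were above all input libraries once scaled, at 20.6 ± 1.21 against 6.29 ± 0.609 CPM (SD, n = 3). The log2 fold change was 1.71 (SE 0.10, adjusted p = 1.8e-07, edgeR), a 3.27-fold higher level that exceeded that of 90.4% of genes tested. Oaz1 (ENSMUSG00000035242.15, chr10:80826656-80829290, plus strand), the more abundant antizyme, had input counts of 1243, 1148 and 1392 and p-UPF1 IP counts of 233, 267 and 272. Input libraries stood at 53.7 ± 2.32 CPM and p-UPF1 IP libraries at 38.2 ± 1.43 CPM (SD, n = 3), again without overlap. The log2 fold change of Oaz1 was -0.49 (SE 0.07, adjusted p = 0.000154, edgeR), close to the median of all genes. The windows around their first-frame stop codons differ at few bases, and whether these sites bear on the values was not tested. With library totals in place of TMM the value of Oaz1 was -0.09 and did not pass (adjusted p = 0.321, edgeR), and over the rIgG IP both antizymes were higher (1.05 and 2.63).

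Azin1 (ENSMUSG00000037458.15, chr15:38487427-38519266, minus strand), whose protein resembles ornithine decarboxylase but lacks its activity, was the other member that was higher. It had input counts of 1011, 995 and 1154 and p-UPF1 IP counts of 554, 599 and 706, or 44.9 ± 1.26 against 91.9 ± 8.82 CPM (SD, n = 3). The groups did not overlap, and the log2 fold change was 1.03 (SE 0.08, adjusted p = 1.7e-06, edgeR). Azin1 shared only 0.0313% of its 35-nt windows with other genes, the least of the members, where 35 nt is the shortest read that was kept. Its 5′ end overlaps the antisense gene Gm49077, and whether reads were counted by strand is not given in the sources used here.

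Odc1 (ENSMUSG00000011179.8, chr12:17544794-17551505, plus strand), the target of the antizymes, was the member with the lowest p-UPF1 IP level relative to input. It had input counts of 1361, 1195 and 1613 and p-UPF1 IP counts of 98, 92 and 102. These are 59.1 ± 5.70 and 14.5 ± 2.00 CPM (SD, n = 3), with no overlap. The log2 fold change was -2.03 (SE 0.11, adjusted p = 1.3e-07, edgeR), at the level of the lowest 20.6% of genes.

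Amd1 (ENSMUSG00000075232.5, chr10:40287458-40302186, minus strand), which carries the short uORF shown above, had input counts of 1165, 1185 and 1419 and p-UPF1 IP counts of 197, 269 and 280. Its level was 36.6 ± 3.05 CPM against 53.5 ± 3.20 CPM in input (SD, n = 3) and its log2 fold change -0.55 (SE 0.08, adjusted p = 0.000240, edgeR). Sat1 (ENSMUSG00000025283.15, chrX:155213132-155216449, minus strand), the catabolic member, had input counts of 100, 104 and 126 and p-UPF1 IP counts of 20, 23 and 19. Its level was 3.08 ± 0.363 CPM against 4.68 ± 0.357 CPM (SD, n = 3), with a log2 fold change of -0.61 (SE 0.17, adjusted p = 0.00863, edgeR). For both genes every p-UPF1 IP library was below every input library.

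The synthase mRNAs showed no call. Srm (ENSMUSG00000006442.10, chr4:148591503-148594993, plus strand) had input counts of 648, 599 and 715 and p-UPF1 IP counts of 185, 186 and 177, or 27.9 ± 1.01 and 27.3 ± 3.55 CPM (SD, n = 3). Its log2 fold change was -0.04 (SE 0.10, adjusted p = 0.749, edgeR). Sms (ENSMUSG00000071708.11, chrX:157443855-157492287, minus strand) had input counts of 195, 215 and 272 and p-UPF1 IP counts of 82, 90 and 62. Input libraries stood at 9.67 ± 1.22 CPM and p-UPF1 IP libraries at 11.7 ± 2.65 CPM (SD, n = 3), with a log2 fold change of 0.26 (SE 0.16, adjusted p = 0.182, edgeR). The groups overlapped for both genes. Without the third p-UPF1 IP library, the lowest of its group, Sms passed the test at 0.46 (adjusted p = 0.0174, edgeR).

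Scaling by library totals alone, in place of TMM, moved the median of all genes up by 0.41 on the log2 scale and took the calls of Oaz1 (-0.09, adjusted p = 0.321, edgeR), Amd1 (-0.14, adjusted p = 0.215) and Sat1 (-0.20, adjusted p = 0.354). With the same scaling Srm (0.37, adjusted p = 0.00585, edgeR) and Sms (0.67, adjusted p = 0.00404) were called higher. Of all genes called, 42.4% were higher with TMM and 56.7% with library totals. Oaz2 and Azin1 were higher and Odc1 lower, past the test, under each of the 18 alternatives tried, with log2 fold changes of 1.57 to 2.11, 0.95 to 1.44 and -4.20 to -1.45.

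**Figure D2:**
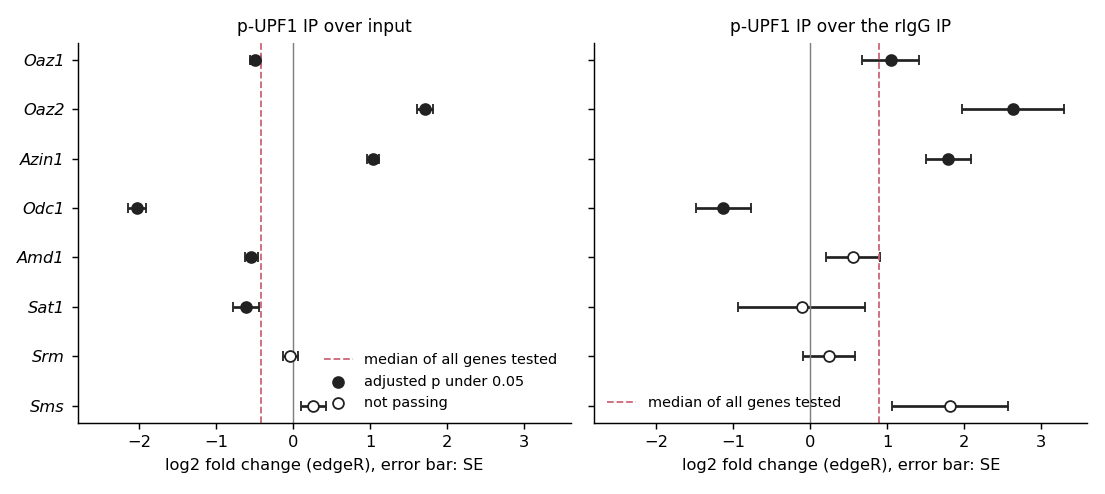
The log2 fold change of each member with its SE, in the p-UPF1 IP over input (left) and over the rIgG IP (right), with filled points for an adjusted p under 0.05 and a dashed line at the median of all genes tested (-0.42 and 0.89). Oaz2 and Azin1 lie right of the dashed line and Odc1 left of it in both panels, which share the p-UPF1 IP libraries.

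Levels per transcript length put the members in another order in each group. They are given as TPM, computed from the counts and the annotated lengths. In input, Oaz1 came first at 32.3 ± 1.20 TPM, followed by Azin1 at 20.2 ± 0.831 and Odc1 at 19.5 ± 1.85, whose libraries overlapped, Srm at 13.7 ± 0.808 and Amd1 at 10.6 ± 0.411 TPM (SD, n = 3). Sms at 2.71 ± 0.450, Oaz2 at 2.56 ± 0.264 and Sat1 at 2.52 ± 0.131 TPM came last and were not separated by their spread. In the p-UPF1 IP, Azin1 came first at 30.0 ± 2.97 TPM, above Oaz1 at 21.4 ± 1.30 and Srm at 12.9 ± 0.652 TPM. Odc1 at 7.78 ± 1.89, Oaz2 at 7.53 ± 0.823 and Amd1 at 6.94 ± 1.10 TPM overlapped one another, ahead of Sms at 4.36 ± 0.632 and Sat1 at 1.79 ± 0.294 TPM.

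Relative to the rIgG IP, the control for nonspecific recovery, 4 of 8 members passed, when 23.5% of 12033 genes did. Those higher were Oaz1, Oaz2 and Azin1 (17.9% of genes were called higher) and the lower one was Odc1 (5.59% called lower). Counts in the rIgG IP libraries were 14, 3 and 0 for Oaz1, 0, 3 and 0 for Oaz2, 10, 7 and 7 for Azin1 and 17, 11 and 1 for Odc1. The others had 18, 5 and 0 (Amd1), 1, 1 and 1 (Sat1), 14, 5 and 2 (Srm) and 3, 0 and 0 (Sms). In the third rIgG IP library 4 members had no count.

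Azin1 had at least 7 counts in each rIgG IP library and a log2 fold change of 1.79 (SE 0.29, adjusted p = 5.6e-05, edgeR). That of Oaz2 was 2.63 (SE 0.66, adjusted p = 0.00498, edgeR). Since it compares 416 counts with 3, the ratio of 6.26 has an exact 95% counting interval of 2.13 to 30.5. Oaz1 had 1.05 (SE 0.37, adjusted p = 0.0434, edgeR), beside a median of 0.89 over all genes, and Odc1 -1.12 (SE 0.35, adjusted p = 0.0216, edgeR). The p-UPF1 IP libraries were above all rIgG IP libraries for Oaz1, Oaz2, Azin1 and Sms, and the groups overlapped for Odc1. With rIgG IP counts of 0, 3 and 0 (Oaz2) and 3, 0 and 0 (Sms), there was little room for overlap. The share of all genes without overlap was not computed.

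The calls over the rIgG IP depended on single control libraries, except that of Azin1, which held in each of 18 alternatives. That of Oaz1 held in 7 of 18, that of Oaz2 in 16 and that of Odc1 in 13. RLE factors in place of TMM moved the median of all genes by -0.27 and the share of calls that were higher from 76.2% to 64.2%, and took the call of Oaz1 (0.77, adjusted p = 0.159, edgeR). Oaz1 did not pass without the second (adjusted p = 0.241, edgeR) or the third rIgG IP library (adjusted p = 0.162), and had 2.40 without the first. Oaz2 had 1.51 and did not pass without the first (adjusted p = 0.158, edgeR), and had a fitted 9.43 without the second, which left it no rIgG IP count. Odc1 did not pass without the first (adjusted p = 0.218, edgeR) or the second (adjusted p = 0.115). Sms, at 1.81 (SE 0.75, adjusted p = 0.0842, edgeR) from 234 counts against 3, passed without the third p-UPF1 IP library (adjusted p = 0.0384). Amd1 (0.56), Srm (0.25) and Sat1 (-0.11) did not pass, with adjusted p of 0.276, 0.616 and 0.943 in edgeR. In the rIgG IP over input no member passed (0.897% of 16280 genes did, 65.1% of them higher, against 81.6% with RLE factors) in edgeR or DESeq2. There 2 members, Oaz1 (-1.30) and Amd1 (-0.86), had an unadjusted p under 0.05 in edgeR, a share not computed for all genes. Oaz1 passed there with edgeR's default filter (adjusted p = 0.0486, edgeR) and with no filter on low counts (0.00983). All 3 comparisons share libraries with one another.

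Transcripts of the members differed within a gene. Of the 50, 40 had enough counts for the test of the p-UPF1 IP over input, 4 were higher by a log2 fold change above 1 with an adjusted p under 0.05 (8.55% of 42616 transcripts tested were) and 4 were lower by one under -1 with the same limit on p (16.2% were). The quantity here is the estimated count that the quantifier gave to each transcript, and short fragments that fit several transcripts were shared out by estimation. A transcript is called coding, NMD (a predicted target of nonsense-mediated decay) or retained intron by its class in the annotation. Where a transcript call over input is said to hold under an alternative, only the adjusted p under 0.05 was required there, not the limit on the log2 fold change.

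The counts of Odc1 lay mostly on its coding transcript in input and mostly on others in the p-UPF1 IP. The coding transcript Odc1-201 had input counts of 892, 795 and 914 and p-UPF1 IP counts of 15, 11 and 13, a log2 fold change of -4.54 (SE 0.22, adjusted p = 0.000212, edgeR). The NMD-class transcript Odc1-208 had input counts of 4, 5 and 11 and p-UPF1 IP counts of 45, 55 and 48, a log2 fold change of 4.36 (SE 0.44, adjusted p = 0.00174, edgeR). In the rIgG IP it had 0, 5 and 0 counts, or 17.2% of the Odc1 counts there, and over the rIgG IP it did not pass (0.73, adjusted p = 0.656, edgeR). Its annotated frame stops at base 438 of 1884, with 7 exon junctions more than 50 nt downstream. The other NMD-class transcript, Odc1-205, went the opposite way, from 402, 351 and 624 counts in input to 1, 7 and 3 in the p-UPF1 IP (-5.47, SE 0.58, adjusted p = 0.00205, edgeR). These 3 calls over input held in each of 15 alternatives, none of which changed how shared reads were allotted. Of their 35-nt windows, 12.1% in Odc1-201, 9.19% in Odc1-208 and 26.7% in Odc1-205 were found in no other transcript. The retained-intron transcripts together took 3.68% to 4.63% of the Odc1 counts in the input libraries and 20.7% to 37.8% in the p-UPF1 IP libraries. In the rIgG IP they took 7 of 29 Odc1 counts (24.1%), beside 17 (58.6%) on Odc1-201 and 0 on Odc1-205. In the rIgG IP over input, Odc1-208 had 3.93 (adjusted p = 0.237, edgeR) and Odc1-205 had an adjusted p of 0.0558, and DESeq2 called both. Over the rIgG IP, Odc1-201 and Odc1-205 did not pass either (adjusted p = 0.282 and 0.452, edgeR).

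Azin1 counts were spread over several transcripts, of which 2 were called higher and 1 lower. The most-counted, coding Azin1-203 had input counts of 551, 457 and 609 and p-UPF1 IP counts of 316, 369 and 534 (log2 fold change 1.08, SE 0.18, adjusted p = 0.00932, edgeR). The retained-intron Azin1-209 had input counts of 138, 154 and 147 and p-UPF1 IP counts of 113, 103 and 107 (1.06, SE 0.17, adjusted p = 0.00749, edgeR). Each of these 2 transcripts kept an adjusted p under 0.05 in 14 of 15 alternatives. Over all 15, their log2 fold changes fell as low as 0.93 and 0.96, under the limit of 1. Of their 35-nt windows, 0% in Azin1-203 and 3.59% in Azin1-209 were found in no other transcript, so both calls rest on how shared reads were allotted. The NMD-class Azin1-205 had 76, 128 and 66 counts and 78, 99 and 35 in the same order (1.14, SE 0.49, adjusted p = 0.144, edgeR). The short NMD-class Azin1-202 went from 58, 55 and 77 counts to 2, 0 and 0, a ratio of 0.0296 with an exact 95% counting interval of 0.00356 to 0.108. Its test passed (adjusted p = 0.0365, edgeR) but kept the call in only 7 of 15 alternatives. In Azin1, coding transcripts held 61.3% to 72.8% of Azin1 counts per input library and 65.0% to 79.5% per p-UPF1 IP library, so the groups overlapped.

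In Sms, too, the coding transcript was lower and an NMD-class transcript higher. Coding Sms-201 had input counts of 151, 141 and 193 and p-UPF1 IP counts of 18, 28 and 15 (-1.49, SE 0.28, adjusted p = 0.0140, edgeR). NMD-class Sms-204, whose annotated stop at base 888 of 1540 has 2 junctions more than 50 nt downstream, had input counts of 25, 47 and 44 and p-UPF1 IP counts of 41, 37 and 35 (1.47, SE 0.34, adjusted p = 0.0283, edgeR). Only 2.12% of the 35-nt windows of Sms-204 were found in no other transcript, and its call held in 9 of 15 alternatives. It was lost without the first input (adjusted p = 0.0590, edgeR), the third input (0.0709) or the first p-UPF1 IP library (0.0551), and with no filter, all 9 libraries in 1 fit or a replicate block. That of Sms-201 held in 12 and was lost without the third input library (0.0512), with library totals and with a replicate block. All 3 rIgG IP counts of Sms were on Sms-204, in the first library, and Sms-204 did not pass over the rIgG IP (1.40, adjusted p = 0.409, edgeR). Coding transcripts held 65.6% to 77.4% of Sms counts per input library and 22.0% to 31.1% per p-UPF1 IP library.

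Oaz1, Amd1 and Srm were counted almost wholly on 1 coding transcript each. TMM factors were computed separately for transcripts, whose median log2 fold change over input was -0.945 (-0.42 for all genes). Transcript values are therefore not directly comparable with those of summed counts. Oaz1-207 held 95.6% of Oaz1 counts in input and 96.5% in the p-UPF1 IP, and had a log2 fold change of -0.78 (SE 0.08, adjusted p = 0.00171, edgeR). Amd1-201 held 99.7% and 98.5% of Amd1 counts and had a log2 fold change of -0.86 (SE 0.10, adjusted p = 0.00248, edgeR), a call lost with all 9 libraries in 1 fit and with library totals (-0.15), as was that of Oaz1-207 with library totals (-0.07). Srm-201 held 94.1% and 95.8% of Srm counts and did not pass (-0.31, SE 0.13, adjusted p = 0.128, edgeR).

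For Oaz2 and Sat1 the transcript values were unstable between libraries. Oaz2-201 had 116, 0 and 132 counts in the input libraries while Oaz2-206, which differs from it by 3 nt at the annotated frameshift, had 0, 146 and 0. Oaz2-201 did not pass with all 6 libraries (2.20, SE 1.38, adjusted p = 0.269, edgeR) and passed without the second input library (1.63, adjusted p = 0.00348). Sat1-201 (coding) had input counts of 80, 94 and 118 and p-UPF1 IP counts of 0, 15 and 0. In their place, the first p-UPF1 IP library had 18 counts on NMD-class Sat1-207 and the third had 16 on coding Sat1-202, which were both at 0 in input. None of these 3 transcripts passed with all 6 libraries, and Sat1-201 passed without the second p-UPF1 IP library (adjusted p = 0.00524, edgeR). Leaving out that library also brought in Odc1-204 (adjusted p = 0.0249, edgeR), and leaving out the third brought in Azin1-205 (0.0481) and Sms-203 (0.0378). With coding transcripts only, the summed Sat1 counts had a log2 fold change of -1.41 that did not pass (adjusted p = 0.0829, edgeR).

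**Figure D3:**
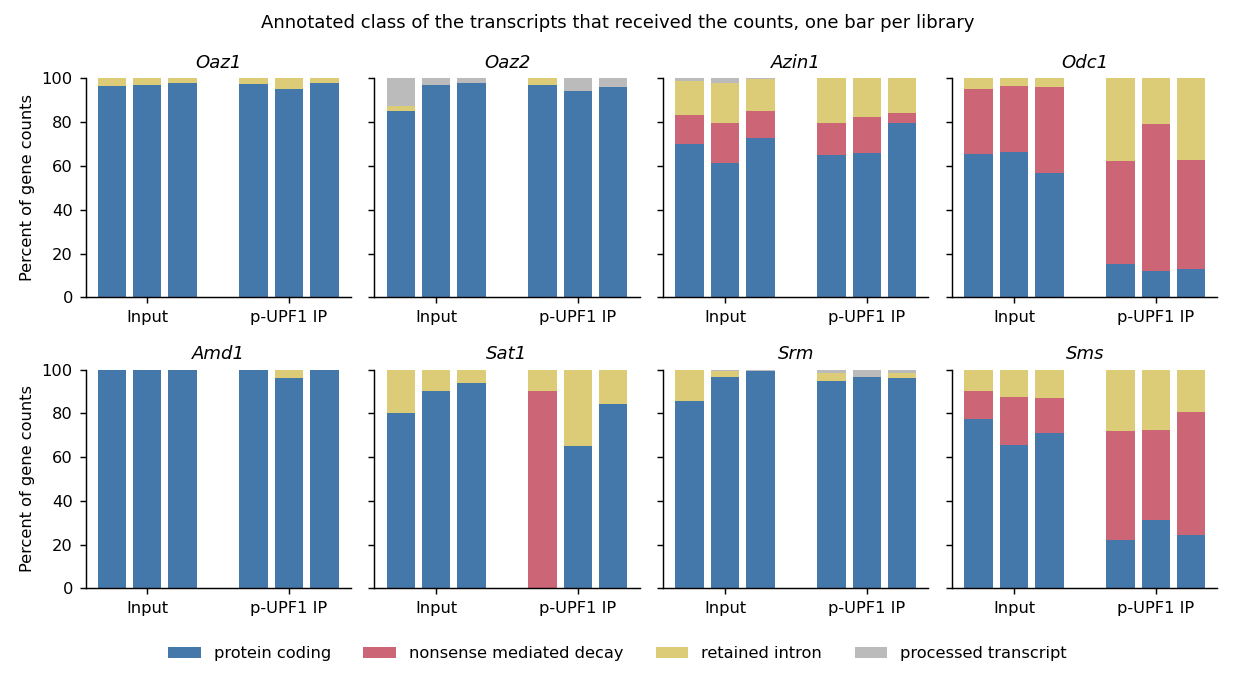
Share of the counts of each gene by annotated class of transcript, in percent, with 1 bar per library (3 input, then 3 p-UPF1 IP). The coding share of Odc1 was 56.7% to 66.5% in input and 12.0% to 15.3% in the p-UPF1 IP, that of Sms 65.6% to 77.4% and 22.0% to 31.1%, while Oaz1, Amd1 and Srm were mostly coding in both.

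Over the rIgG IP, 3 member transcripts were higher by a log2 fold change above 1 with an adjusted p under 0.05 (12.7% of 23034 transcripts were) and none was lower by one under -1 (1.34% were). Oaz1-207 had 745 counts over the p-UPF1 IP libraries and 0 in the rIgG IP, at least 15.5-fold higher against a floor of 3 counts over the group, and Azin1-209 had 323 and 0, at least 6.71-fold higher. The other was Azin1-203. No 35-nt window was found in Oaz1-207 alone, so its 0 rests on how shared reads were allotted, and the summed Oaz1 counts (772 and 17) were 2.07-fold higher. The 17 rIgG IP counts of Oaz1 were instead on Oaz1-204 (12), Oaz1-205 (3) and Oaz1-206 (2). Leaving out the first, the second or the third p-UPF1 IP library left none of these calls and at most 2 calls among all transcripts, so they rest on having all 3. In these fits 5, 4 and 5 member transcripts had an unadjusted p under 0.05, a share not computed for all transcripts. Azin1-203 was also lost without the first or the third rIgG IP library, and without the second Oaz2-201 and Odc1-208 were called as well.

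In the rIgG IP over input no transcript of any gene passed in edgeR with TMM factors and a summed count of at least 10 (0.00%). There 7 of 33 member transcripts tested had an unadjusted p under 0.05, a share not computed for all transcripts. Other fits did make calls. Of member transcripts, edgeR called 4 of 17 with its default filter (13.7% of all transcripts), 4 with all 9 libraries in 1 fit (3.82%), 2 with a replicate block (1.11%), 2 without the first rIgG IP library (3.44%) and 4 without the third (4.39%). DESeq2 called 4 (3.90%) and limma 8 (37.9%).

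Several members have near-identical copies elsewhere in the genome, and reads that fit both can be counted to either. The share of 35-nt windows also found in another gene was 81.8% for Amd1, 29.6% for Odc1, 23.4% for Oaz1, 18.4% for Sms, 11.0% for Oaz2, 6.68% for Srm and 5.86% for Sat1. Amd2 holds 80.8% of the Amd1 windows but had input counts of 17, 27 and 0 and none in the p-UPF1 IP, so that adding it changed little. The pseudogene Sms-ps, with 17.7% of the Sms windows, had more counts than Sms in input (296, 257 and 313) and fewer in the p-UPF1 IP (11, 17 and 25), a log2 fold change of -2.24 (SE 0.17, adjusted p = 1.57e-06, edgeR). With the counts of all sequence-sharing genes added, Sms turned from 0.26 to -0.64 (adjusted p = 0.000360, edgeR). With coding transcripts only it had -1.13 (adjusted p = 0.00379). The direction of Sms thus differed with the reads that were counted to it.

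Copies of Odc1 moved in both directions. Gm17709 (15.3% of the Odc1 windows) had input counts of 330, 363 and 426 and p-UPF1 IP counts of 28, 29 and 57 (-1.50, SE 0.19, adjusted p = 6.48e-05, edgeR). Gm7993 (17.4%) had no counts in input and p-UPF1 IP counts of 25, 52 and 46, at least 142-fold higher against 3 counts over the group. Odc1 with all 14 genes that hold at least 1% of its windows added had input counts of 1719, 1603 and 2145 and p-UPF1 IP counts of 153, 196 and 228. It was still lower, by 1.45 on the log2 scale (a log2 fold change of -1.45). With coding transcripts only it had -4.20. Over the rIgG IP, the calls of Oaz1 (adjusted p = 0.635, edgeR) and Odc1 (adjusted p = 0.270) were lost with all sequence-sharing genes added. For Oaz1 the 13 counts of Oaz1-ps, all in the first rIgG IP library, were the copies concerned.

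**Figure D4:**
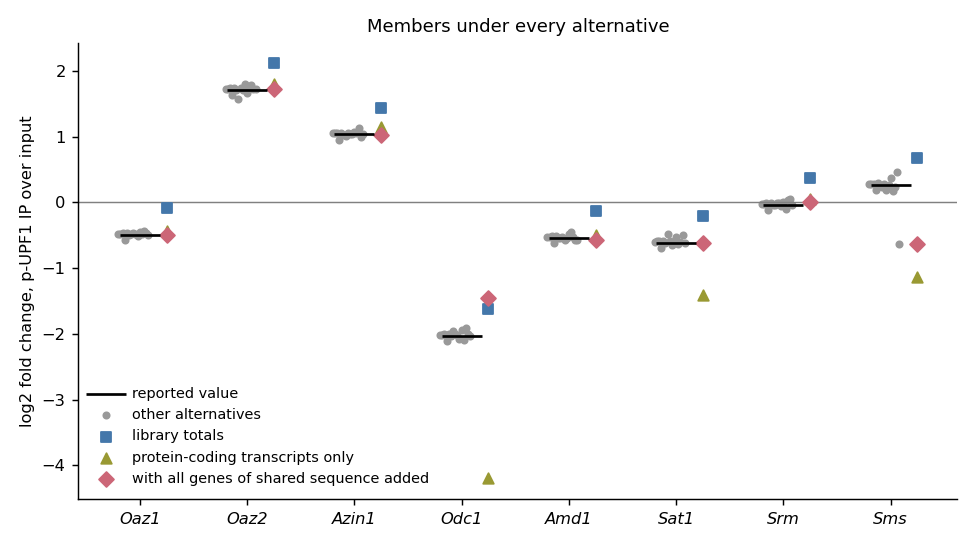
The log2 fold change of each member in the p-UPF1 IP over input as reported (black bar) and under each of 18 alternatives (points), 3 of which have their own symbols. Library totals raise every member, Sms lies on both sides of 0, and Odc1 spans -4.20 to -1.45 without reaching 0.

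Of 27 other genes of the pathway, listed by function, 20 had enough counts for the test over input. There 4 were higher, 9 were lower and 7 did not pass, so that 13 of 20 were called beside 62.0% of all genes (26.3% higher and 35.7% lower), with a median log2 fold change of -0.78 (all genes -0.42). Deoxyhypusine hydroxylase (Dohh, 1.47, SE 0.08) and deoxyhypusine synthase (Dhps, 0.81, SE 0.16) turn spermidine into the hypusine of eIF5A, Atp13a2 (0.94, SE 0.10) exports polyamines from lysosomes, and glypican Gpc1 (0.85, SE 0.10) takes part in their uptake. These are the 4 higher genes. Dohh had input counts of 171, 167 and 192 and p-UPF1 IP counts of 124, 148 and 150 (adjusted p = 9.95e-08, edgeR), above all input libraries once scaled.

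Among the 9 lower genes, Mat2a and Mat2b, subunits of the enzyme that makes S-adenosylmethionine, had log2 fold changes of -1.48 (SE 0.09) and -1.56 (SE 0.21), Ahcy (S-adenosylhomocysteine hydrolase) -2.81 (SE 0.42) and Mtap (methylthioadenosine phosphorylase) -0.89 (SE 0.12). Mat2a had input counts of 2579, 2565 and 2969 and p-UPF1 IP counts of 209, 307 and 324 (adjusted p = 2.63e-07, edgeR). Polyamine oxidase (Paox), the enzyme downstream of Sat1, went furthest, from 1106, 983 and 1218 counts to 16, 28 and 18 (-3.94, SE 0.13, adjusted p = 4.44e-09, edgeR). Also lower were eIF5A itself (Eif5a, -0.50) and its paralog Eif5a2 (-1.46), the P5-type ATPase Atp13a3 (-1.33) and the amino acid transporter subunit Slc3a2 (-0.60). The arginine transporter Slc7a1, with input counts of 2540, 2524 and 2643 and p-UPF1 IP counts of 702, 917 and 859, did not pass (0.15, SE 0.06, adjusted p = 0.0593, edgeR). Reads shared by these genes with copies of their own were not examined.

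**Figure D5:**
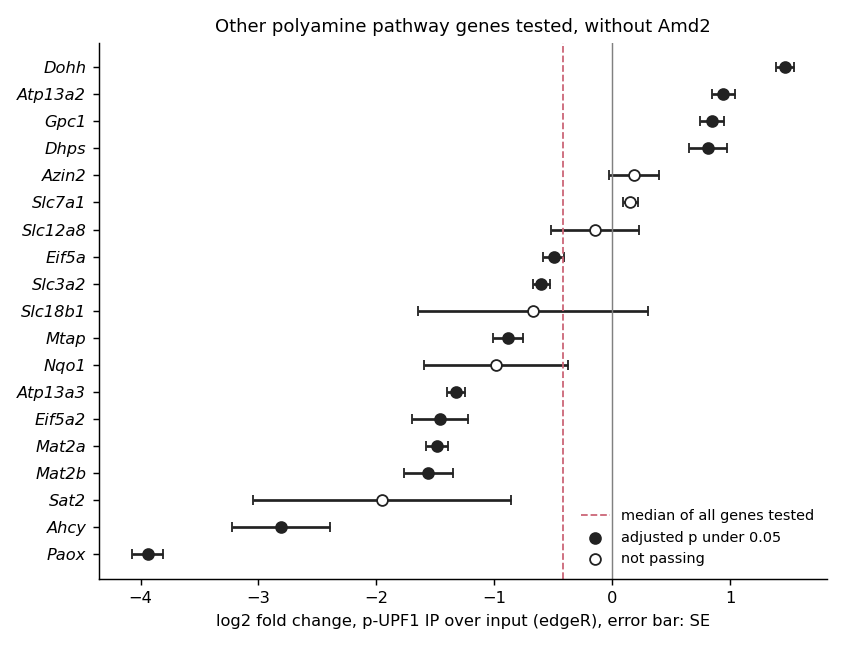
The log2 fold change in the p-UPF1 IP over input, with its SE, of the other pathway genes tested, ordered by value, with filled points for an adjusted p under 0.05 and a dashed line at the median of all genes. Amd2 is left out because it had no count in the p-UPF1 IP. Dohh (1.47) and Paox (-3.94) are at the ends.

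Azin1 had the highest mean CPM of the members over all 9 libraries, 64.2, although it was below Odc1, Oaz1 and Amd1 in input. Among 147 genes with at least 10 counts in every library, those whose log2 CPM (plus 0.5, centred) lay nearest to that of Azin1 over the 9 libraries, by Euclidean distance, were Ywhag (0.927), Fasn (1.11) and Dst (1.12). Ywhag encodes a 14-3-3 protein, Fasn fatty acid synthase and Dst the cytoskeletal linker dystonin. Their log2 fold changes over input, 1.28, 1.30 and 0.54 beside 1.03 for Azin1, follow from that choice and are a description only.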

How the data were processed

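The authors trimmed the reads, mapped them to GRCm38.p6 with the GENCODE M22 annotation and quantified them per transcript, and deposited estimated counts (expected counts) that are whole numbers and not scaled for depth. The submitters' processing notes name STAR 2.7.0f, Salmon 0.13.1, DESeq2 1.22.1, R 3.5.1 and bcl2fastq 2.19.0. No column was left unmapped to a library.

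From these counts, features with a summed count of at least 10 were tested with edgeR 4.0.16 (R 4.3.3; TMM, quasi-likelihood test, Benjamini-Hochberg adjustment over all features) on the 6 libraries of the groups compared. The test was run on simulated counts drawn from edgeR's own fitted dispersions, with changes placed only in better-counted features. That run did not check how well changes are found at a few counts, or how reads were allotted among transcripts. Each SE was derived from the log2 fold change and the F value of its test. Of the transcripts, 139921 matched GENCODE M21 by identifier, which gave positions, classes, lengths and 35-nt windows. Alternatives were DESeq2 1.42.0, limma 3.58.1 on log2 of CPM plus 1, other scalings and filters, all 9 libraries, a replicate block, named copies added, coding transcripts only, leaving out each library and leaving out the 10 most-counted features. Adding every gene that holds at least 1% of a member's windows was chosen after seeing the data, as were the alternatives for transcripts over the rIgG IP and in the rIgG IP over input and running the 3 changes of counted features on the other pathway genes.

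Members, lists and tests were chosen with earlier results of these data known. Genes named are the 8 members, the most-counted transcript and every called transcript of each, their near-identical copies, the other pathway genes called, and the 3 genes nearest to the member with the highest mean CPM over all 9 libraries. Gm17709, Gm7993, Slc7a1 and the other transcripts named were chosen after their values were seen. The deviations of same-numbered libraries were uncorrelated (r of -0.0016, 0.051 and 0.039 over 10613 genes in the p-UPF1 IP over input), so the numbers were not used as pairs. RNA-seq of the same study was not analysed here.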

Additional observations from a re-analysis of the deposited data

How the results depend on the processing

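The count of members called in the p-UPF1 IP over input was 5 to 7 of 8 and that of the other pathway genes 13 or 14 under all alternatives. The share of all genes called there was 62.0% as reported, and ran from 34.2% (no filter on low counts) to 77.1% (filterByExpr). Over the rIgG IP, the 4 members (23.5% of all genes) became 2 with the replicate block (14.9%), 2 with all sequence-sharing genes added (23.9%), 1 with limma (28.8%) and 2 to 5 when a library was left out (13.6% to 24.4%). In the rIgG IP over input, 1 member (Oaz1) was called with filterByExpr (2.62% of all genes) and 1 without a filter (1.87%). Of member transcripts over input, 4 higher became 7 with DESeq2, 2 with all 9 libraries in 1 fit, 2 with the replicate block and 3 to 5 when a library was left out. Over all 42616 transcripts tested, 3644 higher became 5325, 2923 and 1075 in the same order. When a library was left out they became 3157 to 3664 (38666 to 41283 tested). The 4 lower became 2 with library totals, 2 with the replicate block and 2 to 4 when a library was left out. Over all transcripts, 6908 lower became 4597, 1459 and 3682 to 6655 in the same order. Over the rIgG IP the 3 higher transcripts (12.7% of all transcripts) became 6 with limma (32.8%) and 0 to 5 when a library was left out (0.00513% to 12.2%). In the rIgG IP over input, the 0 transcripts became 4 with DESeq2 (3.90% of all transcripts), 4 with filterByExpr (13.7%) and 4 with all 9 libraries in 1 fit (3.82%). They became 2 with the replicate block (1.11%), 8 with limma (37.9%) and 0 to 4 when a library was left out (0.00% to 4.39%). The replicate numbers share only a number, and the cause of these changes was not tested.

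Log2 fold changes of single members crossed 0 as follows. For the p-UPF1 IP over input, Srm (-0.04) had 0.37 with library totals, 0.051 with coding transcripts only, 0.013 with shared sequence added and -0.10 to 0.053 without a library, and Sms (0.26) had -0.63 with named copies added, -0.64 with all shared sequence added and -1.13 with coding transcripts only. Over the rIgG IP, Srm (0.25) had -0.0090 with DESeq2, -0.028 with RLE factors and -0.11 with filterByExpr, and Sat1 (-0.11) had -0.65 to 0.14 without a library. For the rIgG IP over input, Oaz2 (-0.67) had 0.055 with shared sequence added and -9.48 to 0.45 without a library, the lowest value with rIgG counts of 0 in both libraries left. There Sat1 (-0.25) had 0.034 by DESeq2, 0.037 by RLE factors and -0.60 to 0.29 without a library. Srm (-0.03) had 0.26 by DESeq2, 0.25 by RLE factors, 0.19 by library totals, 0.032 by filterByExpr, 0.11 with coding transcripts only and -0.48 to 0.066 without a library. Of these, only Srm with library totals and the 3 values of Sms passed an adjusted p of 0.05. Depth limits the rIgG IP most, where Oaz2, Sat1 and Sms rest on 3 counts each.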
